A study of Rattus norvegicus with 7 samples.

Results

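Wnt ligands are secreted lipid-modified proteins that bind Frizzled receptors on nearby cells, and secreted antagonists hold them back outside the cell. The 9 genes described here are 2 ligands (Wnt5a and Wnt7a), 6 genes of secreted proteins of the antagonist families (Dkk3, Sfrp1, Sfrp2, Sfrp4, Frzb and Wif1) and Axin2, an intracellular feedback inhibitor. They were taken as every probe set with 1 of these symbols as its only gene symbol in the platform annotation. This gave 18 probe sets for 9 genes, of 31042 non-control probe sets in all.

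Expression was measured in 7 samples of total RNA of right lungs from Dahl Salt Sensitive rats on Affymetrix arrays, 1 array per sample. The H-SU-Sor group (4 arrays) was kept in hypoxia, at an inspired oxygen of about 9.5%, and received SU-5416, an inhibitor of VEGF receptors, together with sorafenib, an inhibitor of RAF and of receptor tyrosine kinases. The H-SU group (3 arrays) had the same hypoxia and SU-5416 without sorafenib. Hypoxia and SU-5416 were thus common to all 7 samples, and the normoxic rats and the rats in hypoxia alone of the study design were not analysed here. Lungs were taken at 3.5 weeks, the rats weighed 250 to 350 g, and the doses and the rats' ages are not given in the sources used here.

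In the canonical branch of the pathway, a Wnt bound to Frizzled and an LRP co-receptor stabilises beta-catenin, which joins TCF and LEF proteins at target genes. Secreted frizzled-related proteins and WIF1 bind Wnts directly, while the best-known dickkopf proteins block the LRP co-receptors. In lung, Wnt signals act between mesenchyme and epithelium during development, and they act on smooth muscle and endothelium of pulmonary vessels.

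The arrays carried whole-lung RNA, and 8 of 8 alveolar type II markers, 7 of 7 endothelial and 8 of 8 smooth muscle markers on the array lay above the expression filter described below. Array medians lay between 3.59 and 3.68 on the log2 scale. Arrays H-SU 1b and 2b stood apart from the other 5 at a probe set of the MHC class II gene RT1-Bb, at 12.57 on both against 3.55 to 3.72. They also had the highest summed level of 10 cardiac muscle markers, 12.19 and 11.91 on the log2 scale, while the H-SU-Sor arrays were at 9.17 to 10.74 and H-SU 3b was at 9.48. Cardiac signal was not confined to them, as Myl7 was at 7.57 to 9.86 in H-SU-Sor, against 11.17, 10.87 and 7.96 on H-SU 1b, 2b and 3b. Member results are therefore also given without these arrays where that moves a value by over 1.5 times or across an unadjusted p of 0.05. Differences of other genes are given with all 7 arrays only, and how far they rest on these arrays is not described. The letter b marks every H-SU replicate and no H-SU-Sor replicate, so anything it stands for and sorafenib cannot be told apart.

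Promoter windows of the members were read from RefSeq sequence of build GRCr8 and cover 250 bases before to 50 bases after the annotated start. Entries were found for 6 of the 9 genes, and Dkk3, Sfrp1 and Sfrp4 had none. The windows of Axin2, Sfrp2 and Wnt7a are shown because these 3, of the genes tested below, had the higher mean in H-SU-Sor lungs. Capitals mark a TCF/LEF word, searched on both strands: the letters CTTTG and then either AA or AT or TA or TT.
Axin2, chr10:94398535-94398834, plus strand: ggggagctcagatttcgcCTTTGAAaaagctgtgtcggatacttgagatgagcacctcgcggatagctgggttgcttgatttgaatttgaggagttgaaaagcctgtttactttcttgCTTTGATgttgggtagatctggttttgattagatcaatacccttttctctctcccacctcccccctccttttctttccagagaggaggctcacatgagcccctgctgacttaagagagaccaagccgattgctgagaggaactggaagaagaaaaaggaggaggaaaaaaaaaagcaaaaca
Sfrp2, chr2:171387286-171387585, plus strand: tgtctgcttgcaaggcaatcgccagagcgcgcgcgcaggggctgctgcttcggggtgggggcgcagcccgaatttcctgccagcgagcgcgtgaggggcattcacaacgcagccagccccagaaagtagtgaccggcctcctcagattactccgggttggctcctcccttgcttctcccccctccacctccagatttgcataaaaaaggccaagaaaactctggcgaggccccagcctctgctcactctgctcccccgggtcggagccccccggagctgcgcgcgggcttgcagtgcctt
Wnt7a, chr4:125466100-125466399, minus strand: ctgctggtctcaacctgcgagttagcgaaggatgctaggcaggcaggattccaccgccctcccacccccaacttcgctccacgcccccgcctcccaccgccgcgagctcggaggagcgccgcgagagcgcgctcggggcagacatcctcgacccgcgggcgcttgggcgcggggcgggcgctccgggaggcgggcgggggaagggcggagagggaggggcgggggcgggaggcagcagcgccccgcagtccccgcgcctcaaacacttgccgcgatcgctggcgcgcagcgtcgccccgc

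The Axin2 window held 2 such words, CTTTGAA from base -232 and CTTTGAT from base -132 relative to the annotated start. The windows of Sfrp2, Wnt7a, Frzb, Wif1 and Wnt5a held 0. Of all 33469 windows of the same length, 17.1% held at least 1 of the words. A match describes the letters of these windows and no more.

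Dkk3 lay lower in every H-SU-Sor lung than in any H-SU lung. Axin2, Sfrp2 and the brighter Wnt7a probe set had higher means in H-SU-Sor, with groups that met or overlapped. Frzb spread over more among the H-SU lungs than the group means differed. No member passed the adjusted threshold. The comparison was H-SU-Sor minus H-SU, fitted with limma on the deposited log2 values of 15521 probe sets, those with a 7-array mean over 3.64, which is the median probe set mean. Of the 18 member probe sets, 9 passed this filter, and they represent 7 genes. At an unadjusted p below 0.05, 1 of the 9 was lower in H-SU-Sor (Dkk3), where 3.67% of all probe sets tested were. In the other direction 1 of the 9 was higher (Axin2), where 2.33% of all were. At an adjusted p below 0.05 (Benjamini-Hochberg over all probe sets tested) 0 of 15521 probe sets passed, which is 0%, and the lowest adjusted p was 0.15.

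**Figure D1:**
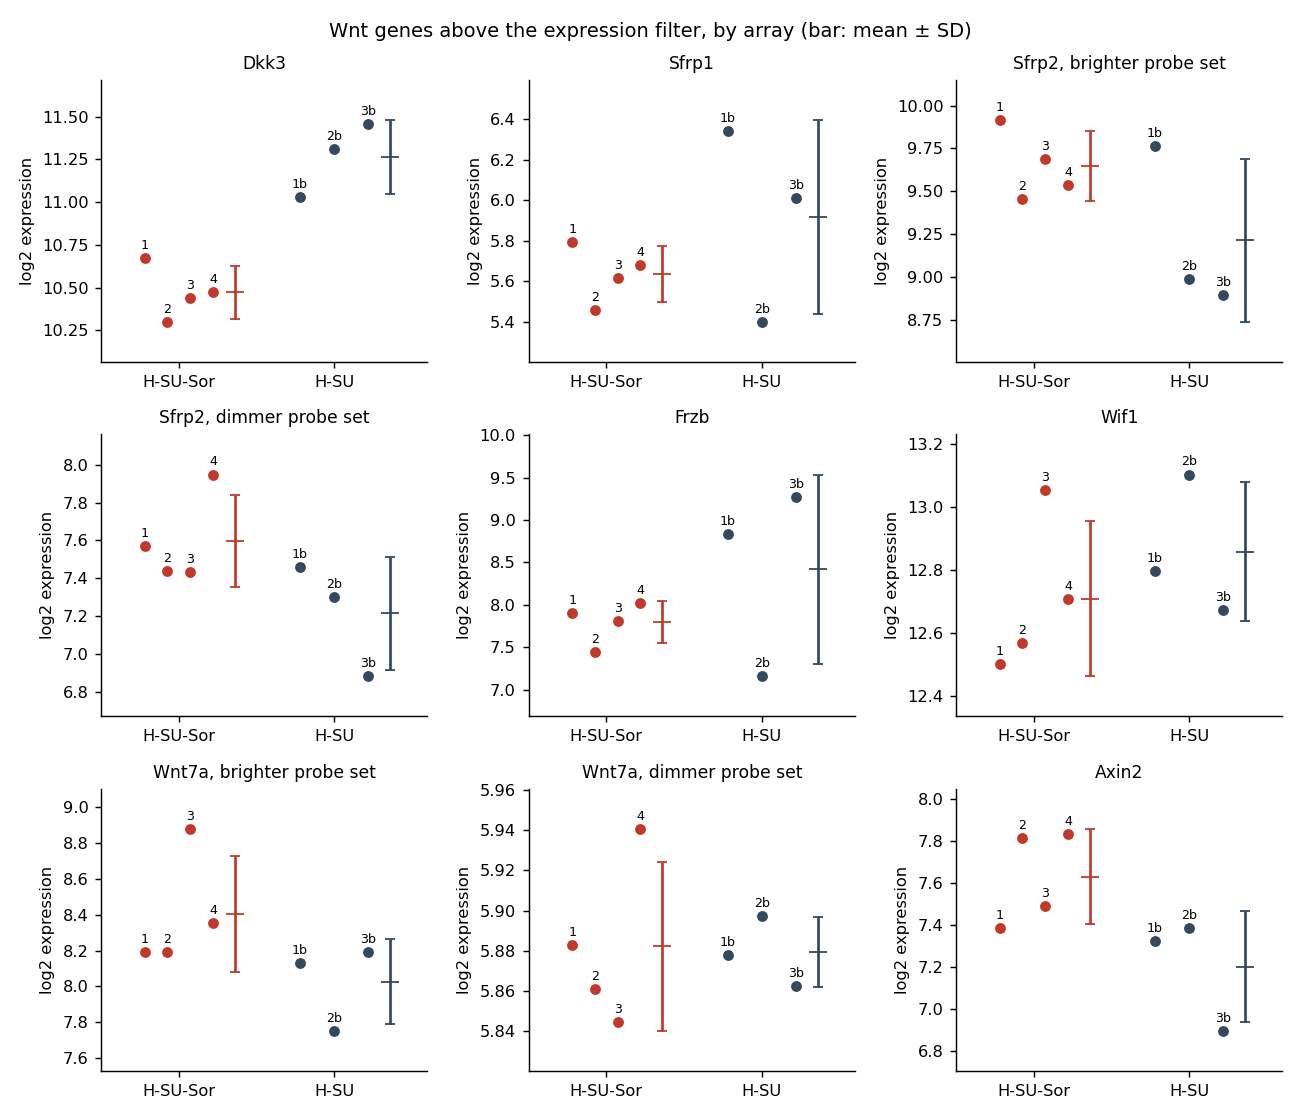
Deposited log2 expression (vertical axes, each with its own scale) of the 9 member probe sets above the filter, 1 point per array labelled with its replicate, H-SU-Sor in red and H-SU in dark blue, with the group mean and SD beside the points. The groups do not overlap for Dkk3, they meet at 1 value for Axin2, and the H-SU arrays of Frzb span from 7.16 to 9.27.

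Dkk3 encodes a divergent member of the dickkopf family whose action on Wnt signalling is less settled than that of its relatives. Its bright probe set was at 10.68, 10.30, 10.44 and 10.48 on H-SU-Sor 1 to 4, against 11.03, 11.31 and 11.46 on H-SU 1b, 2b and 3b. Every H-SU-Sor array thus lay below every H-SU array, as did 3.25% of all probe sets tested. The group means were 10.47 ± 0.16 (SD, n = 4) in H-SU-Sor and 11.26 ± 0.22 (SD, n = 3) in H-SU. The log2 difference was -0.79 ± 0.13 (SE), a 1.73-fold lower level, with a 95% interval from -1.10 to -0.49. Its unadjusted p of 0.000608 in the limma fit was the 26th smallest of 15521, and its adjusted p was 0.361. An exact permutation test of the difference in means, made two-sided by doubling the smaller tail, gave p = 0.0571. That is the smallest p this form of the test can give with 3 against 4 arrays.

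The difference of Dkk3 lay between -0.91 and -0.70 with each array left out in turn, and at -0.98 without H-SU 1b and 2b together, where the only remaining H-SU array is assumed to vary like the others. Its unadjusted p stayed below 0.05 in all 16 alternative settings. The other 3 Dkk3 probe sets were below the filter and flat, between 2.59 and 2.96 on every array and each spanning at most 0.165.

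Part of the smooth muscle markers moved with Dkk3. All 8 had a lower mean in H-SU-Sor, 4 of them at an unadjusted p below 0.05, as were 4.18% of all genes tested. The other 4, Acta2, Lmod1, Myh11 and Smtn, differed by -0.04, -0.12, -0.27 and -0.51. The summed level of the 8 was between 14.68 and 15.25 in H-SU-Sor against 15.59 to 15.76 in H-SU on the log2 scale. Desmin (Des), the intermediate filament of muscle, was at 10.56, 10.16, 10.62 and 10.39 on H-SU-Sor 1 to 4, against 11.47, 11.56 and 11.56 on the H-SU arrays. Part of the fibroblast markers also moved, with 7 of 11 lower at an unadjusted p below 0.05, against the same 4.18% of all genes tested. The other 4, Pdgfra, Dcn, Pi16 and Mfap4, differed by -0.15, -0.10, -0.08 and 0.07. Their summed level was between 16.50 and 16.66 in H-SU-Sor against 16.71 to 16.85 in H-SU. The part of these cell types in the Dkk3 result was not tested. In whole lung, fewer cells of a type and less RNA per cell cannot be told apart, for Dkk3 as for the genes that follow.

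**Figure D2:**
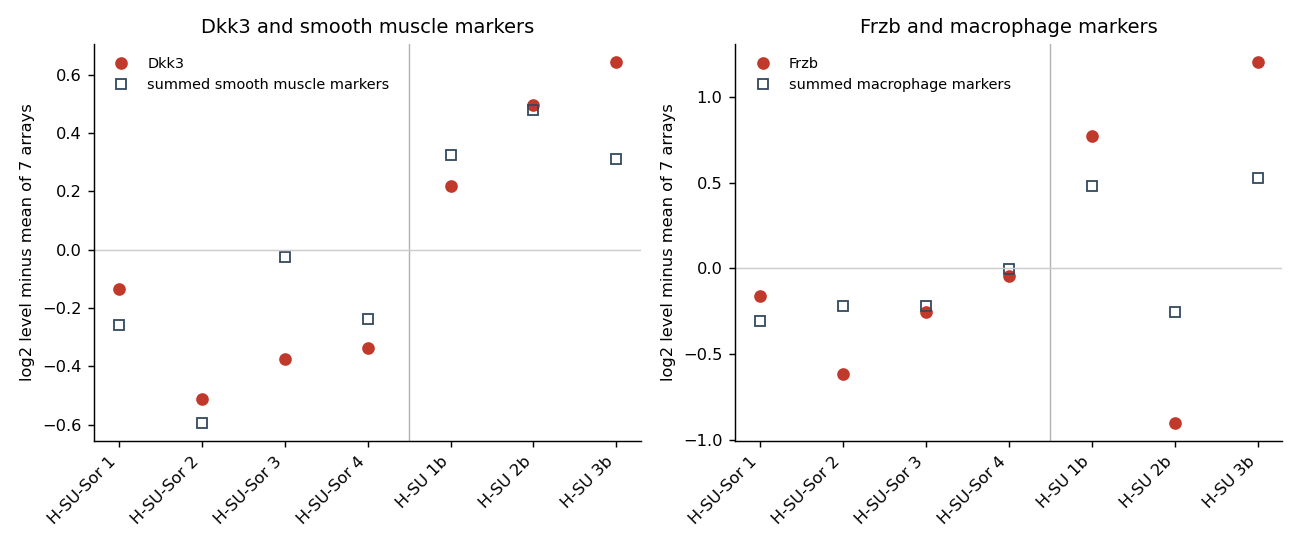
Log2 level minus the mean of the 7 arrays (vertical axes) for Dkk3 beside the summed level of 8 smooth muscle markers (left) and for Frzb beside the summed level of 8 macrophage markers (right), 1 position per array with H-SU-Sor left of the grey line. Dkk3 and the muscle sum are both above their mean on the 3 H-SU arrays, and Frzb and the macrophage sum are both high on H-SU 1b and 3b and lower on 2b.

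Among 9299 genes with a tested probe set, the 3 whose centred values over the 7 arrays came closest to those of Dkk3 were Scarb1, Basp1 and Jph2. Their root mean square differences from Dkk3 were 0.13, 0.18 and 0.18 on the log2 scale, against a median of 0.44 for all genes. Scarb1, the receptor for high-density lipoprotein, was at 9.60 to 9.85 in H-SU-Sor against 10.32 to 10.63 in H-SU. Jph2, a junctophilin of muscle membranes, was at 6.40 to 6.88 in H-SU-Sor against 7.01 to 7.59 in H-SU. The likeness is a description over 7 arrays that share their groups.

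Sfrp2, a secreted frizzled-related protein of mesenchymal cells, had a higher mean in H-SU-Sor at both of its probe sets. The brighter gave 9.92, 9.45, 9.69 and 9.54 on H-SU-Sor 1 to 4, against 9.76, 8.99 and 8.89 on H-SU 1b, 2b and 3b. The groups overlapped because H-SU 1b lay above 3 of the H-SU-Sor arrays. The dimmer probe set gave 7.57, 7.44, 7.43 and 7.95 in H-SU-Sor, against 7.46, 7.30 and 6.89 in H-SU, and H-SU 1b again lay within the H-SU-Sor range. The log2 differences were 0.43 ± 0.23 and 0.38 ± 0.18 (SE), with 95% intervals from -0.12 to 0.99 and from -0.06 to 0.82 (limma, unadjusted p = 0.106 and 0.0778, adjusted p = 0.874 for both).

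The Sfrp2 differences moved with the H-SU arrays. Without H-SU 1b they were 0.71 and 0.50 (limma, unadjusted p = 0.00319 and 0.0464, adjusted p = 0.613 and 0.918). Without H-SU 1b and 2b together they were 0.75 and 0.71 (limma, unadjusted p = 0.0172 and 0.0356, adjusted p = 0.457 and 0.592), and without H-SU 3b they were 0.27 and 0.22. On the full set of arrays, the dimmer probe set had an unadjusted p below 0.05 with median centring (limma, adjusted p = 0.962). The brighter did with the replicate number as a block (limma, adjusted p = 0.717). In that block fit H-SU-Sor 4 has no same-numbered H-SU array and adds nothing to the difference. H-SU 1b also carried the highest summed level of fibroblast markers, 16.85 on the log2 scale, against 16.77 and 16.71 on H-SU 2b and 3b. The H-SU-Sor arrays, where the Sfrp2 means were higher, had lower sums, from 16.50 to 16.66. The part of these cells in the Sfrp2 values was not tested. H-SU-Sor 2 and 3 lay below H-SU 1b at both probe sets, and all 4 H-SU-Sor arrays lay above H-SU 2b and 3b at both. Of 9299 genes, C5h9orf152, Ubl7 and Slc22a17 came closest to the brighter probe set, with root mean square differences of 0.17, 0.18 and 0.18 against a median of 0.38.

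Sfrp1 and Frzb, of the same frizzled-related family, had lower means in H-SU-Sor and a wide spread within H-SU. Sfrp1 was at 5.79, 5.46, 5.62 and 5.68 on H-SU-Sor 1 to 4, against 6.34, 5.40 and 6.01 on H-SU 1b, 2b and 3b. Frzb, first known from cartilage, was at 7.90, 7.45, 7.81 and 8.02 on the H-SU-Sor arrays, against 8.84, 7.16 and 9.27 on the H-SU arrays. For both genes H-SU 1b and 3b lay above all 4 H-SU-Sor arrays and H-SU 2b lay below all of them. The SD of Frzb was 0.25 (n = 4) in H-SU-Sor and 1.11 (n = 3) in H-SU, and its spread within groups, 0.73, was wider than that of 97.6% of all probe sets tested.

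The log2 difference was -0.63 ± 0.49 (SE) for Frzb, with a 95% interval from -1.81 to 0.56, and -0.28 ± 0.22 for Sfrp1, with an interval from -0.81 to 0.25 (limma, unadjusted p = 0.246 and 0.244, adjusted p = 0.874 for both). Without H-SU 2b, Frzb differed by -1.26 and Sfrp1 by -0.54 (limma, unadjusted p = 0.00119 and 0.00839, adjusted p = 0.354 and 0.608). Without H-SU 3b, Frzb differed by -0.21, and without H-SU 1b, Frzb differed by -0.42 and Sfrp1 by -0.07. Without H-SU 1b and 2b together, Frzb differed by -1.47.

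The dim second probe set of Frzb, below the filter, gave 2.26, 2.25, 2.23 and 2.27 in H-SU-Sor, against 2.56, 2.28 and 3.26 in H-SU. Its 2 highest values were on H-SU 3b and 1b, the arrays where the bright probe set was highest. In a fit over all 31042 probe sets its difference was -0.45 ± 0.22 (SE; limma, unadjusted p = 0.0908, adjusted p = 0.910). The other 2 probe sets of Sfrp1 were flat, between 1.92 and 3.07.

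The summed level of macrophage markers was highest on H-SU 1b and 3b, as Frzb was. The log2 sum was between 13.50 and 13.81 in H-SU-Sor, against 14.29 on H-SU 1b, 13.56 on H-SU 2b and 14.34 on H-SU 3b. H-SU 2b, the array with the lowest Frzb, thus had a sum within the H-SU-Sor range. Of these markers 7 of 8 were above the filter, all but Cd163. Between the groups the list did not move together: C1qa, C1qb and C1qc had lower means in H-SU-Sor (log2 differences of -1.70, -2.69 and -1.68), while Cd68, Csf1r, Cd14 and Mrc1 had higher means (0.39, 0.17, 0.07 and 0.01), and the median of the 7 was 0.01. This list was set beside Frzb after the values were seen, and its part in the result was not tested. Markers of cartilage did not reach the filter on these arrays, with 0 of 7 above it and a summed log2 level between 5.41 and 5.57 in H-SU-Sor and between 5.51 and 5.58 in H-SU. Of 9299 genes, Bpifb1, an airway secretory protein, Cfi, complement factor I, and Epsti1 came closest to Frzb, with root mean square differences of 0.33, 0.35 and 0.38 against a median of 0.69. Bpifb1 was at 9.07 to 9.53 in H-SU-Sor, against 10.47, 9.32 and 11.24 on H-SU 1b, 2b and 3b.

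Wif1, a secreted protein that binds Wnts through its own WIF domain, was the brightest member probe set relative to all probe sets, with a mean above 97.4% of them. It was at 12.50, 12.57, 13.06 and 12.71 on H-SU-Sor 1 to 4, against 12.80, 13.10 and 12.67 on H-SU 1b, 2b and 3b. Both groups covered nearly the same range. The log2 difference was -0.15 ± 0.16 (SE), with a 95% interval from -0.54 to 0.24 (limma, unadjusted p = 0.393, adjusted p = 0.898). It was 0.04 without H-SU 1b and 2b together, and with single arrays left out it ran from -0.26 without H-SU-Sor 3 to -0.03 without H-SU 2b.

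Sfrp4, the remaining frizzled-related member, was at the floor. Its 2 probe sets lay between 2.28 and 2.35 on all 7 arrays, below a lower quartile of 2.37 to 2.42 over all probe sets. A change of Sfrp4 could not be measured at this signal. Of the 9 member probe sets below the filter, 7 spanned less than 0.2 over the 7 arrays, and of all probe sets below the filter 90.2% did.

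Of the ligands, Wnt5a, which acts mostly outside the beta-catenin branch, also lay below the filter at its single probe set. It gave 2.62, 3.63, 2.71 and 2.80 on H-SU-Sor 1 to 4, against 2.78, 3.12 and 2.79 on H-SU 1b, 2b and 3b. H-SU-Sor 2 and H-SU 2b were above the others, and the groups overlapped. In the fit over all 31042 probe sets its difference was 0.05 ± 0.26 (SE; limma, unadjusted p = 0.869, adjusted p = 0.941).

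Wnt7a, a ligand known to signal through beta-catenin in several tissues, had a higher mean in H-SU-Sor at its brighter probe set. The values were 8.19, 8.19, 8.88 and 8.35 on H-SU-Sor 1 to 4, against 8.13, 7.75 and 8.19 on H-SU 1b, 2b and 3b. H-SU-Sor 3 was the highest array and H-SU 2b the lowest, while the values of H-SU-Sor 1, H-SU-Sor 2 and H-SU 3b were identical to 6 decimals. Of all probe sets tested, 10.8% had 3 or more arrays at identical values. The log2 difference was 0.38 ± 0.20 (SE), with a 95% interval from -0.11 to 0.86 (limma, unadjusted p = 0.106, adjusted p = 0.874). Without H-SU-Sor 3 it was 0.22, without H-SU 2b it was 0.24, and without H-SU 1b and 2b together it was 0.21.

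The second Wnt7a probe set lay between 5.84 and 5.94 on all 7 arrays and did not share this pattern. Its log2 difference was 0.00 ± 0.04 (SE), with a 95% interval from -0.10 to 0.11. The estimate of the brighter probe set lay outside this interval, but its own wider interval, from -0.11 to 0.86, covered it. The difference between the probe sets was not tested. The dimmer probe set's spread within groups, 0.03, was below that of all but 6.77% of the probe sets tested. Whether so flat a probe set follows the transcript was not tested, so its narrow interval does not show that Wnt7a was unchanged. The genes closest to the brighter probe set were Vps13b, Nedd4l and Cdk12, with root mean square differences of 0.07, 0.07 and 0.10 against a median of 0.32.

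Axin2 is a scaffold of the complex that marks beta-catenin for destruction, and as a direct target of TCF and LEF proteins it is widely used as a readout of canonical Wnt signalling. It was at 7.39, 7.81, 7.49 and 7.83 on H-SU-Sor 1 to 4, against 7.32, 7.39 and 6.90 on H-SU 1b, 2b and 3b. H-SU-Sor 1 and H-SU 2b had the identical value, where the groups met, and H-SU 3b was the lowest array. The group means were 7.63 ± 0.23 (SD, n = 4) in H-SU-Sor and 7.20 ± 0.27 (SD, n = 3) in H-SU. The log2 difference was 0.43 ± 0.17 (SE), a 1.35-fold higher level, with a 95% interval from 0.03 to 0.83 (limma, unadjusted p = 0.0404, adjusted p = 0.812). An exact permutation test, made two-sided by the same doubling, gave p = 0.114.

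The direction of Axin2 was the same in all 15 alternative settings that held it, but its size was not stable. It was 0.28 without H-SU 3b (limma, unadjusted p = 0.129, adjusted p = 0.980) and 0.36 without H-SU-Sor 4, 0.37 without H-SU-Sor 2 and 0.49 without H-SU 1b, each with an unadjusted p above 0.05, and with array weights it was 0.40 (limma, unadjusted p = 0.0509, adjusted p = 0.690). Without H-SU 1b and 2b together it was 0.73.

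**Figure D3:**
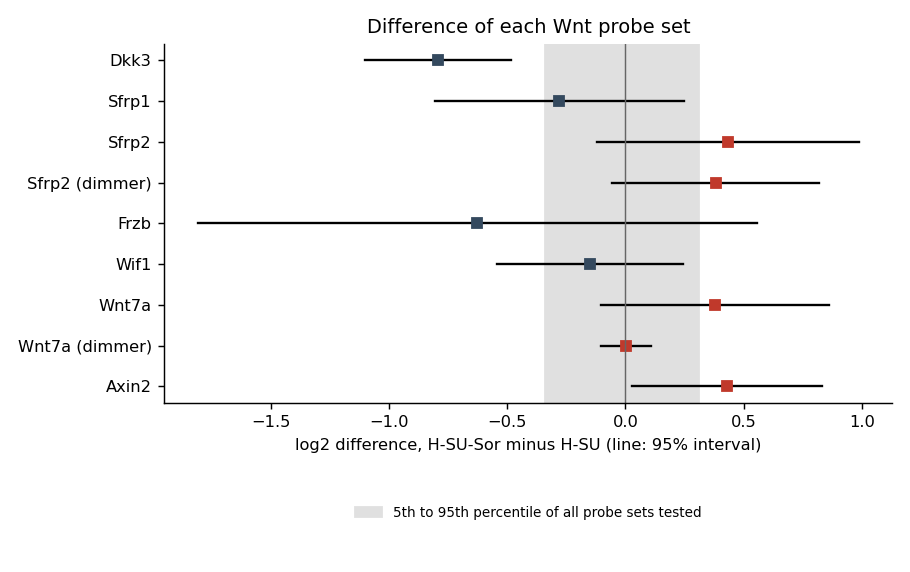
Log2 difference, H-SU-Sor minus H-SU (horizontal axis), of the 9 member probe sets above the filter, with squares at the estimate, lines for the 95% interval of the limma fit, and a grey band from the 5th to the 95th percentile of all probe sets tested (-0.34 to 0.31). The intervals of Dkk3 and Axin2 leave out 0 before adjustment, and the other 7 include it.

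**Figure D4:**
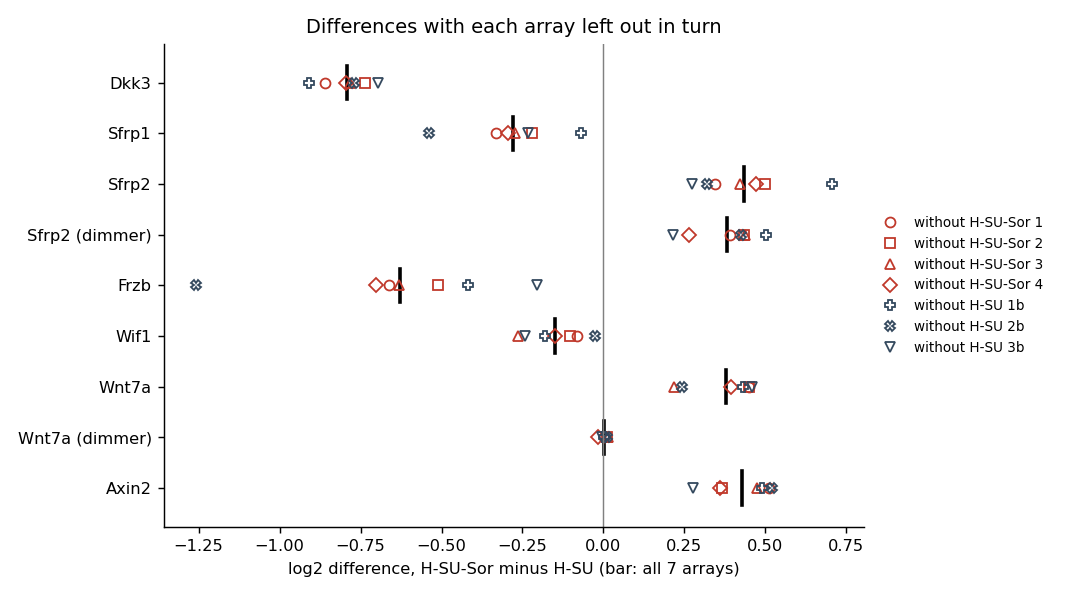
The same differences (horizontal axis, log2) with each of the 7 arrays left out in turn, as open symbols in red for H-SU-Sor arrays and dark blue for H-SU arrays, and the value with all 7 arrays as a black bar. Dkk3 stays between -0.91 and -0.70, while Frzb runs from -1.26 without H-SU 2b to -0.21 without H-SU 3b.

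The rest of the Wnt pathway was described from lists of ligands, other antagonists, receptors, R-spondins, secretion factors, cytoplasmic components and target genes. These hold 93 further genes, of which 69 were on the array and 45 had a tested probe set. Of the 45 genes, 0 were lower and 0 were higher at an unadjusted p below 0.05 (limma), against 4.18% lower and 2.69% higher of all 9299 genes tested with 1 probe set each, and 0 passed the adjusted threshold. The median log2 difference of the 45 genes was -0.02, beside -0.01 for all genes.

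Outside the cell, 0 of 6 other antagonists on the array, secreted or at the membrane, passed the filter. Dkk2, Sfrp5, Sost, Sostdc1, Kremen1 and Apcdd1 lay between 1.61 and 2.72 on every array. Of 11 other Wnt ligands on the array, 4 passed it, and their log2 differences ran from -0.16 for Wnt2, a mesenchymal ligand of the developing lung, to -0.02 for Wnt2b. The 4 included Wnt4 at -0.10 ± 0.09 (SE) and Wnt5b at -0.08 ± 0.10.

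Among 9 receptors and co-receptors the differences ran from -0.36 to 0.86. The LRP co-receptor Lrp6 was at 7.18, 7.32, 7.77 and 6.82 on H-SU-Sor 1 to 4, against 7.65, 7.70 and 7.54 on the H-SU arrays, and H-SU-Sor 3 lay above all H-SU arrays. Its difference was -0.36 ± 0.21 (SE; limma, unadjusted p = 0.135, adjusted p = 0.874). Lrp5, its close relative, had the highest difference of the receptors, 0.86 ± 0.44 (SE), and was picked after its values were seen (unadjusted p = 0.0972, adjusted p = 0.874).

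Inside the cell, beta-catenin (Ctnnb1) was between 13.72 and 13.93 in H-SU-Sor, against 13.88 to 14.00 in H-SU, a difference of -0.06 ± 0.07 (SE; limma, unadjusted p = 0.438, adjusted p = 0.907). H-SU-Sor 2, H-SU 1b and H-SU 2b shared the Ctnnb1 value 13.883. The transcription factor Lef1 was at 9.81 to 9.86 in H-SU-Sor, against 9.85, 10.17 and 9.85 on H-SU 1b, 2b and 3b, a difference of -0.12 ± 0.09. H-SU-Sor 3, H-SU-Sor 4, H-SU 1b and H-SU 3b shared the Lef1 value 9.8541, and only H-SU 2b stood well above it. The 20 cytoplasmic and nuclear components tested ran from -0.33 for the corepressor Tle3 to 0.29 for Tcf7l2.

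Of the 8 other target genes tested, 5 had a higher and 3 a lower mean in H-SU-Sor, and their median difference was 0.05. Myc was the only member of the target list whose groups did not overlap (0.14 ± 0.06, SE, unadjusted p = 0.0644, adjusted p = 0.861), where 2.01% of all probe sets tested lay wholly above, and it was picked after its values were seen. Nkd1, a feedback inhibitor of the pathway like Axin2, differed by 0.09 ± 0.08, and Znrf3, which removes Frizzled receptors from the membrane, by 0.26 ± 0.15. Neither passed at an unadjusted p below 0.05.

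**Figure D5:**
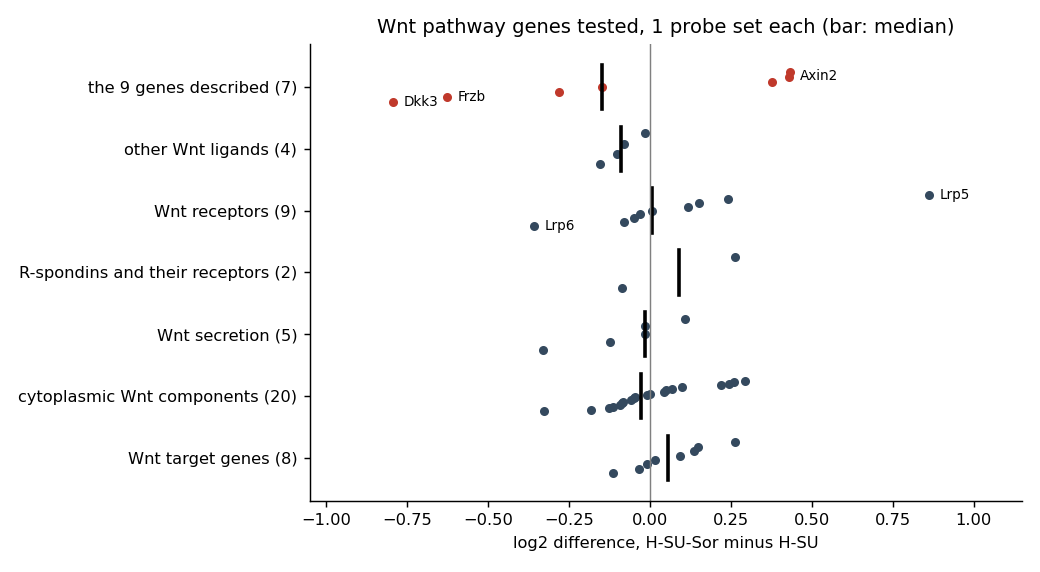
Log2 difference, H-SU-Sor minus H-SU (horizontal axis), of each Wnt pathway gene with a tested probe set, 1 point per gene by list with the number tested in brackets, and the list median as a black bar. Dkk3 lies lowest at -0.79 and Lrp5 highest at 0.86, and the medians of the lists lie between -0.15 and 0.09.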

How the data were processed

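The deposited values are log2 expression of each probe set, already normalized by the authors. RMA and GCRMA are named, per the submitters' processing notes, without saying which produced this table. Values spanned 0.29 to 16.14, and near the floor differences are compressed. Fold changes are computed from the deposited log2 values.

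The 57 control probe sets were left out. The platform annotation gave 20826 of the others a single symbol, 436 more than 1 and 9780 no symbol. A match by gene identifier to the RefSeq table of GRCr8 changed 0 symbols. The fit used limma version 3.58.1 (lmFit and eBayes) in R version 4.3.3, without covariates, two-sided, and was tested on simulated data. A gene is represented by its brightest probe set unless several are given. Summed marker levels are log2 of summed linear values. Named list genes were to be those with an unadjusted p below 0.05, at most 12, with Ctnnb1, Lef1 and Lrp6 in any case; others named are examples chosen after their values were seen. The 3 genes nearest to a member are given where it spans at least 1 log2 unit. Members and lists were chosen with earlier results of these data known.

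Alternatives were 2 other filters, median centring, quantile normalization, array weights, robust moderation with an intensity trend, 1 probe set per gene, the replicate number as a block, and arrays left out. Arrays were treated as separate rats, and if they were not the p-values measure technical spread alone; their number limits the precision. The SAM procedure named in the study design was not run.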

Additional observations from a re-analysis of the deposited data

How the results depend on the processing

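Under 16 alternative settings, Dkk3 kept its direction and an unadjusted p below 0.05, with a lowest adjusted p of 0.152. No member passed the adjusted threshold under any of them. The count of all probe sets past the adjusted threshold was 6 with the filter at the 75th percentile, 10 without the H-SU arrays 1b and 2b, and between 0 and 6 with each array left out, the 6 arising without H-SU 3b; 0 of these were members. At the 75th percentile 6 member probe sets, Axin2 among them, were not tested, and with 1 probe set per gene 2 were not.

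Member probe sets higher at an unadjusted p below 0.05 numbered 1 with all arrays and 0 to 2 with each array left out. They numbered 0 with the filter at the 75th percentile and with array weights, and 2 with median centring. The count was 0 without H-SU-Sor 2, H-SU-Sor 4 or H-SU 3b, and 2 without H-SU 1b. At the 75th percentile Axin2 was not tested, so the 0 there says nothing about it. Member probe sets lower numbered 1 with all arrays and 1 to 3 with each array left out, the 3 arising without H-SU 2b. Shares of all probe sets called were counted for the main fit only. The counts in other settings therefore cannot be read as a result about the members. Wif1 turned to 0.035 without the H-SU arrays 1b and 2b. The second Wnt7a probe set turned to -0.001 with quantile normalization and -0.0164 with the replicate block. With each array left out it ran from -0.0164 (without H-SU-Sor 4) to 0.0155, also turning (-0.0053) without H-SU 3b. It was 0.0195 without H-SU 1b and 2b together. The causes were not tested.

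Deviations of same-numbered arrays from their group means correlated at -0.06, 0.18 and 0.14 over 15521 probe sets. Those of differently numbered arrays correlated at -0.17 to 0.24. So few correlations, from deviations tied together within small groups, cannot show whether the replicate numbers pair the arrays. With the replicate block, 0 probe sets passed the adjusted threshold, Dkk3 differed by -0.79, Axin2 by 0.36 (limma, unadjusted p = 0.0555, adjusted p = 0.747) and the brighter Sfrp2 probe set by 0.47 (limma, unadjusted p = 0.0394, adjusted p = 0.717). These differences equal those without H-SU-Sor 4, because that array has no same-numbered H-SU array and adds nothing to them. Sfrp4, Dkk2, Sfrp5, Sost, Sostdc1, Kremen1 and Apcdd1 were near the floor on all arrays, where a change cannot be measured. Wnt5a, at up to 3.63, did not reach the filter.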
